A study of Mus musculus with 4 samples.

Results

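Cytosolic ribosomal protein genes were examined in brain cortex of mice given TCQA (tricaffeoylquinic acid, a plant polyphenol) or water. A gene was included when its symbol began with Rpl or Rps and a digit, or was Rplp0, Rplp1, Rplp2 or Rpsa, and pseudogene symbols with -ps, Rps6k kinases and Rps19bp were left out. The array named 67 such genes among 19572 transcript clusters with a symbol, 41 of the large and 26 of the small subunit, each with 1 row. Of these, 55 were core genes, 8 were paralogs that carry a symbol of their own (such as Rpl22l1 and Rps27l), and 4 were retrogenes or -like copies (Rpl32l, Rpl37rt, Rps27rt and Rps23rg1). RefSeq lists 94 symbols that meet the same rule, and 27 of them, among them Rplp2, Rpl10, Rpl13a, Rps3 and Rps27, had no row under that name and were not analysed here.

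The mice were males of SAMR1, the normally ageing companion line of the senescence-accelerated mice, and had been kept singly for 4 months from 7 months of age. The TCQA group received 5 mg/kg by mouth each day for 1 month from 11 months of age, and the control group received purified water over the same month. Each group had 2 arrays (Clariom S mouse), and nothing in the labels tells single animals from pools, so p-values reflect only how far these arrays scatter, which may be technical. Values are log2 signals. Array medians over named rows lay between 6.98 and 7.04, arrays correlated across genes with r between 0.990 and 0.993, and the changes of the housekeeping genes Actb, Gapdh and Hprt were 0.021, -0.088 and 0.26. Of 14 measured markers of excitatory cortical neurons, 13 lay above 6.98, the median of the negative control probe sets, but so did 13 of 14 striatal and 12 of 15 thalamic markers, so this check does not single out cortex. Array precision is limited by the number of arrays.

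The cytosolic ribosome joins a small subunit, which reads the mRNA, to a large subunit, which forms peptide bonds and releases the chain through an exit tunnel. Its protein genes are among the most actively expressed in all cells and are kept in balance with each other. Their mRNAs start with a tract of pyrimidines (the 5' terminal oligopyrimidine or TOP tract), through which the kinase complex mTORC1 and the RNA-binding protein LARP1 set their translation and stability. In neurons part of the ribosomal protein mRNA is carried into dendrites and axons.

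Sequences around the annotated start were read from RefSeq promoters on GRCm38.p6, which matched 54 of the 67 genes. A run of at least 8 C or T letters that opens with C, on the gene's own strand and within 50 bases of a start, was found in 43 of the 54 (79.6%), against 32.0% of 27025 genes with a promoter entry. The windows below cover 40 bases before and 20 from the start. They were picked because they hold the run of genes from both ends of the list of changes and of Rps6, the target of S6 kinases. Rps28 is shown as a gene without such a run in this window. Capitals mark the longest run.
Rpl14: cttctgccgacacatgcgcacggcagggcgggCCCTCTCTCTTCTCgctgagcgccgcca
Rps18: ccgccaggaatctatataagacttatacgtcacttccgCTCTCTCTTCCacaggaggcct
Rpl31: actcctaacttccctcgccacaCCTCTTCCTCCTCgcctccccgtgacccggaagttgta
Rps9: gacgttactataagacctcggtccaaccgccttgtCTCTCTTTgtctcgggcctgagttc
Rps6: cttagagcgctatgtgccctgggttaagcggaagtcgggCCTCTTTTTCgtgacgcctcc
Rps28: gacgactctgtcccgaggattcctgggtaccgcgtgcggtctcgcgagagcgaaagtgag
The Rpl14 window spans chr9:120571477-120571536 on the plus strand and its run has 14 bases. The window of Rps18 is chr17:33955646-33955705 on the minus strand, with a run of 11 bases. That of Rpl31 is chr1:39367811-39367870 (plus, 13 bases), that of Rps9 is chr7:3704001-3704060 (plus, 8 bases), that of Rps6 is chr4:86857348-86857407 (minus, 10 bases) and that of Rps28 is chr17:33824543-33824602 (minus). The run crosses the annotated start in Rpl14, Rps18, Rps9 and Rps6 and ends upstream of it in Rpl31. These windows do not stand for all genes with a run. In Rpl41 and Rpl39 the longest run opens at base 41 and 37 from the start, and in Rps16 at base -46. The count above takes a run anywhere within 50 bases of a start, so it does not show a TOP tract at the first base of the mRNA. Of the genes shown, Rpl14 and Rps18 had a higher mean after TCQA and the other 4 a lower one, a split that the choice of windows fixed.

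The comparison of TCQA with water asked whether these genes differ after a month of treatment. Of the 67 genes 57 had a lower mean signal in TCQA than in water, against 49.5% of all tested rows, and the size was small. The median log2 change was -0.10 over the 41 large subunit genes, of which 33 were lower, and -0.22 over the 26 small subunit genes, of which 24 were lower, while the median of all 19572 tested rows was 0.0028. No gene passed limma's moderated test after Benjamini-Hochberg adjustment, the smallest adjusted p among the 67 being 0.673, and 0.00% of all tested rows passed. At an unadjusted p under 0.05, 0 of the 67 were higher and 1 lower, against 3.48% of all rows higher, 3.89% lower and 7.37% in either direction, so the share of single genes called was no larger than the background. The 1 gene was Rps23rg1, a retrogene derived from Rps23, whose signal lay below the negative control median on all 4 arrays. With the study's criteria, an unadjusted p under 0.05 and over 2-fold, 0 of the 67 were called, against 0.245% of all rows higher and 0.419% lower.

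In 31 of the 67 genes both TCQA arrays lay below both water arrays, a share of 46.3% against 19.2% of all rows (39.2% in either direction). Both TCQA arrays lay above both water arrays in 5 genes, 7.46% against 19.9% of all rows. By subunit, 16 of 41 large and 15 of 26 small subunit genes did not overlap in the lower direction, and 5 large and 0 small in the higher one. The 55 core genes gave the same picture, with 50 lower and 28 without overlap in that direction. Among the 3222 tested rows whose mean exceeded the 95th percentile of the negative controls (11.06), 40.4% were lower in TCQA and the median change was 0.053. Of the 45 ribosomal protein genes above that level 40 were lower, with a median of -0.17. The sets were not matched in level, with array means of 12.78 to 12.88 for the rows and 13.74 to 14.03 for the genes. The part of signal level was not tested. All counts in this paragraph are over genes that share arrays and probes with near-identical copies, and genes are not replicates of the treatment.

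**Figure D1:**
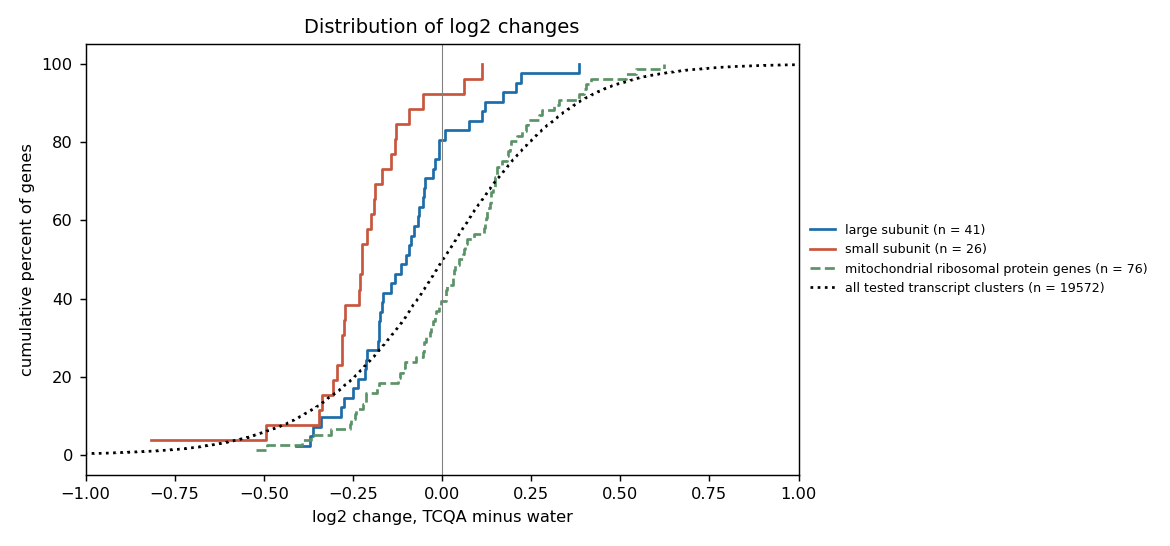
Cumulative percent of genes (vertical axis) by log2 change of TCQA minus water (horizontal axis), for 41 large and 26 small subunit genes, 76 mitochondrial ribosomal protein genes and all 19572 tested rows; values beyond 1 in size are not drawn. The small subunit curve lies left of the large subunit curve, with medians of -0.22 and -0.10, and the mitochondrial curve has a median of 0.053.

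The arrays within a group differed by about as much as the groups. After subtracting each gene's mean over 4 arrays, the median of the small subunit genes was -0.052 in TCQA 1 and -0.18 in TCQA 2, against 0.16 in water 1 and 0.045 in water 2. For the large subunit genes it was -0.0046 in TCQA 1 and -0.085 in TCQA 2, against 0.12 in water 1 and -0.0077 in water 2. Water 1 was the highest and TCQA 2 the lowest array in both subunits, and TCQA 1 and water 2 lay between them. Water 1 held the highest value of 39 genes and TCQA 2 the lowest value of 39. TCQA 1 exceeded TCQA 2 in 51 of 67 genes by a median of 0.13, and water 1 exceeded water 2 in 48 of 67 by a median of 0.11, while the median change between groups was -0.17. Between the closest arrays of the groups, TCQA 1 and water 2, TCQA 1 was lower in 40 of 67 genes, with a median difference of -0.037. For the small subunit that difference was -0.090, with 17 of 26 lower, and for the large subunit -0.0097, with 23 of 41 lower. Between the farthest, TCQA 2 was below water 1 in 59 of 67 genes, including 26 of 26 of the small subunit. Without TCQA 2 the medians were -0.057 and -0.16 for the large and small subunit, with 25 of 41 and 21 of 26 genes lower. Without water 1 they were -0.081 and -0.15, with the same counts of genes lower.

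**Figure D2:**
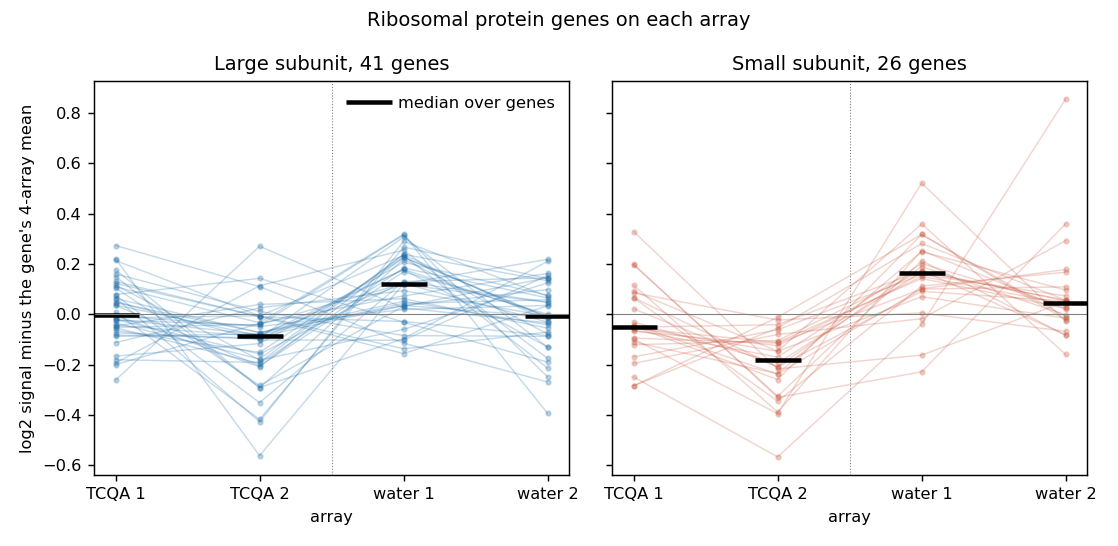
Log2 signal minus the gene's mean over 4 arrays (vertical axis) on each array (horizontal axis), with 1 line per gene, large subunit at left and small subunit at right, and a black bar at the median over genes. The medians are lowest in TCQA 2 (-0.085 and -0.18) and highest in water 1 (0.12 and 0.16).

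In the large subunit, changes ran from -0.41 to 0.38, with SEs of median 0.19. The factor-binding stalk, which recruits the GTPases of translation, was measured through its base Rplp0 and its acidic arm Rplp1. Rplp0 lay at 9.96 and 9.92 in TCQA and at 9.99 and 10.01 in water, a change of -0.055 (SE 0.18). Rplp1 lay at 16.69 and 16.54 in TCQA and at 16.96 and 16.70 in water, a change of -0.21 (SE 0.20). Both were lower without overlap, by about their SE or less. Rpl5 and Rpl11, which form a particle with 5S rRNA and can bind the p53 ligase Mdm2 when ribosome assembly fails, differed by -0.092 (SE 0.19) and -0.026 (SE 0.19), and the groups overlapped for Rpl11.

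Around the mouth of the exit tunnel 7 of 7 measured proteins were lower, with a median of -0.17. Rpl31 lay at 15.96 and 15.47 in TCQA and at 16.19 and 15.97 in water, a change of -0.36 (SE 0.24). Rpl22 lay at 13.18 and 12.76 in TCQA and at 13.24 and 13.25 in water, a change of -0.27 (SE 0.22). In both genes TCQA 2 lay apart, and TCQA 1 was close to the nearest water array. Rpl17, Rpl19 and Rpl35 were also lower without overlap, at -0.18, -0.13 and -0.17. Rpl39 (-0.066), which lines the tunnel, and Rpl38 (-0.11), linked in mice to the translation of Hox mRNAs, overlapped between groups.

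In the list drawn up for the peptidyl transferase centre and the tunnel wall the members went both ways, with 2 of 5 higher and 3 lower. The list also holds Rpl10a, which lies away from both sites. Rpl4, which reaches into the tunnel, lay at 16.14 and 15.99 in TCQA and at 15.90 and 15.89 in water, a change of 0.17 (SE 0.19). Rpl3, which touches the catalytic centre, was higher by 0.11 (SE 0.19), without overlap. Rpl8 and Rpl10a differed by -0.21 (SE 0.20) and -0.17 (SE 0.20), of which Rpl8 did not overlap.

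Rpl29, counted in the same list, had the lowest change of the large subunit. Its values were 13.26 and 12.84 in TCQA and 13.52 and 13.40 in water, a change of -0.41 (SE 0.22, unadjusted p = 0.110 by limma). Rpl32l, a copy named after Rpl32, lay at 9.78 and 9.77 in TCQA and at 10.19 and 10.09 in water, a change of -0.37 (SE 0.19). Rpl37a lay at 11.56 and 10.78 in TCQA and at 11.46 and 11.56 in water, and its change of -0.34 (SE 0.29) came with overlap. Here 1 array decided the direction, since without TCQA 2 the change of Rpl37a was 0.051, and without TCQA 1 it was -0.73. Without TCQA 2 those of Rpl29 and Rpl31 were -0.20 and -0.12, and without TCQA 1 that of Rpl31 was -0.61. Rpl7 lay at 13.84 and 13.89 in TCQA and at 14.22 and 14.08 in water, a change of -0.28 (SE 0.19), with both arrays of each group close together.

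Against this direction stood Rpl14 (transcript cluster TC0900001605.mm.2 on chromosome 9), at 15.91 and 15.75 in TCQA and at 15.53 and 15.37 in water. Its change of 0.38 (SE 0.19, unadjusted p = 0.0917, adjusted p = 0.690 by limma) was the highest of the 67. It stayed between 0.30 and 0.46 with each array left out. Rpl9 lay at 14.60 and 14.38 in TCQA and at 14.24 and 14.31 in water, a change of 0.21 (SE 0.19). The other higher genes of the large subunit without overlap were Rpl4, Rpl3 and Rpl7l1. Rpl21, among the strongest signals, lay at 16.30 and 16.24 in TCQA and at 16.37 and 16.38 in water, a change of -0.10 (SE 0.18). The remaining large subunit genes lay between -0.25 (Rpl27) and 0.12 (Rpl39l).

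**Figure D3:**
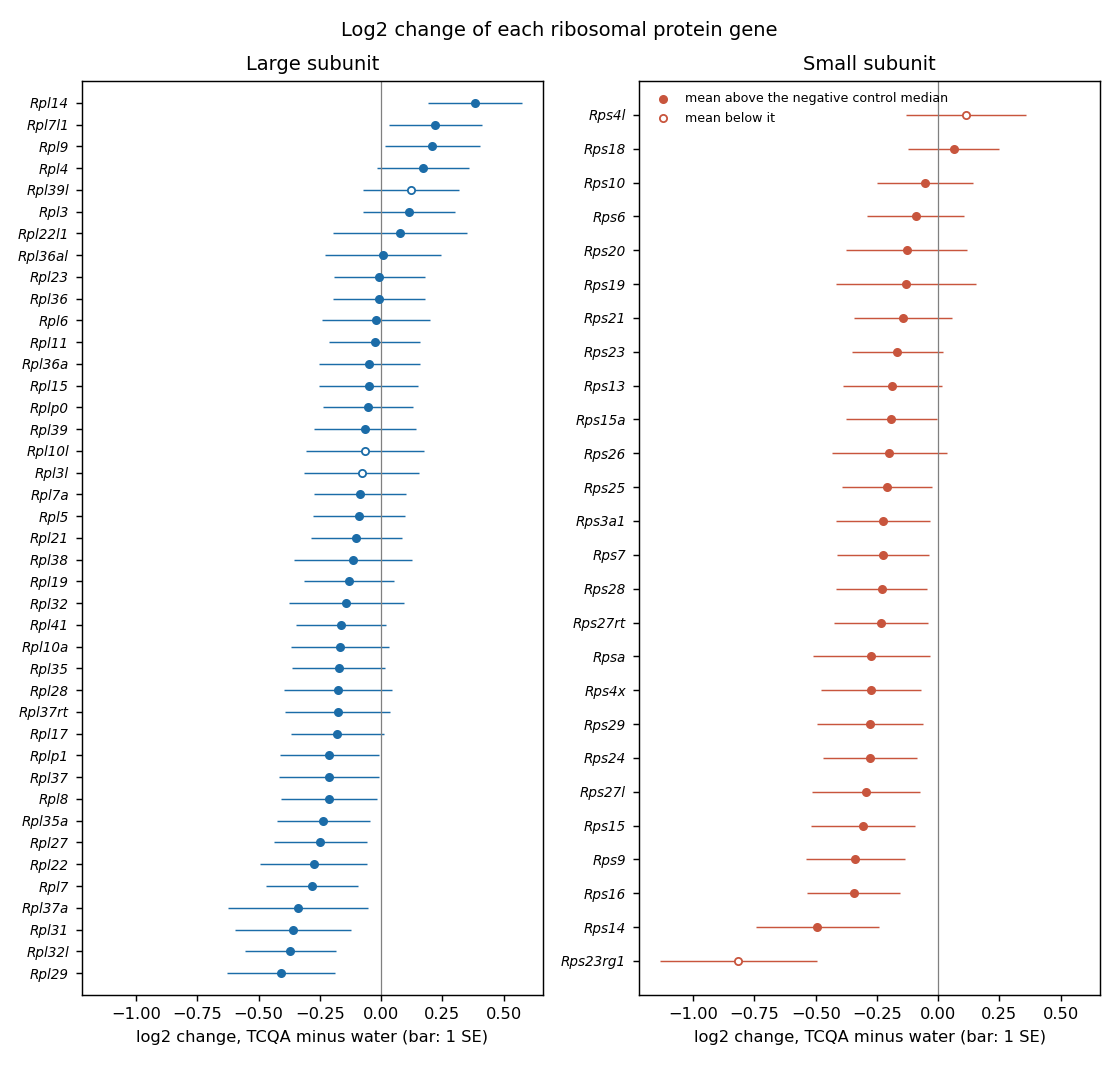
Log2 change of TCQA minus water (horizontal axis, bars of 1 SE from limma) for each gene, large subunit at left and small subunit at right, ordered by change; open points have a mean below the negative control median of 6.98. Rpl14 (0.38) and Rpl29 (-0.41) end the large subunit, and Rps4l (0.11) and Rps23rg1 (-0.82) the small one.

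In the small subunit, the core genes ran from -0.493 to 0.0625, with 21 of 22 lower. At the mRNA entry and the decoding centre, Rps9 lay at 9.70 and 9.93 in TCQA and at 10.27 and 10.04 in water, a change of -0.34 (SE 0.20). Rps15 lay at 16.02 and 15.81 in TCQA and at 16.39 and 16.06 in water, a change of -0.31 (SE 0.21). Rps23, whose loop enters the decoding centre, lay at 17.28 and 17.22 in TCQA and at 17.48 and 17.36 in water, a change of -0.17 (SE 0.19). All 3 were lower without overlap, and the gaps between nearest arrays of the groups were below the median SE.

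In the list drawn up for the platform and the mRNA exit 5 of 5 measured proteins were lower. The list also holds Rps25, whose place on the platform is not claimed here. Rps14 lay at 11.80 and 11.50 in TCQA and at 12.42 and 11.87 in water, a change of -0.49 (SE 0.25, unadjusted p = 0.0955), which was the lowest among the core genes. Without water 1 the change of Rps14 was -0.22, and without water 2 it was -0.77 with an unadjusted p of 0.0279. Rps28 lay at 10.81 and 10.92 in TCQA and at 11.14 and 11.06 in water, a change of -0.23 (SE 0.19). Rps25, required in human cells for initiation at some viral internal entry sites, lay at 13.06 and 13.04 in TCQA and at 13.25 and 13.26 in water, a change of -0.21 (SE 0.18), with replicates 0.020 and 0.0089 apart. Rps26 (-0.20) and Rpsa (-0.27), the laminin receptor precursor of the platform side, overlapped between groups.

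In the head of the subunit, Rps16, whose tail reaches the tRNA in the P site, lay at 11.26 and 11.13 in TCQA and at 11.62 and 11.46 in water, a change of -0.35 (SE 0.19, transcript cluster TC0700000495.mm.2 on chromosome 7). Rps29 lay at 14.84 and 14.42 in TCQA and at 14.88 and 14.94 in water, a change of -0.28 (SE 0.22). Rps10, Rps20 and Rps18 overlapped, at -0.055, -0.13 and 0.0625, and Rps18 was the 1 core gene of the small subunit that was higher. Rps19, the gene most often mutated in the human Diamond-Blackfan anaemia, lay at 10.67 and 10.14 in TCQA and at 10.24 and 10.83 in water. Each group spanned more than the change of Rps19 (-0.13, SE 0.29). The genes that follow are not placed by site. Rps6, the S6 kinase target, lay at 16.13 and 16.14 in TCQA and at 16.35 and 16.10 in water, a change of -0.092 (SE 0.20) with overlap. Rps24 (-0.28), Rps7 (-0.23), Rps3a1 (-0.22), Rps15a (-0.19) and Rps4x (-0.275) were lower without overlap.

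Of 20 ribosomal protein genes known from Diamond-Blackfan anaemia, an inherited failure of red cell production, 16 were measured. All 16 were lower, with a median of -0.20, and 10 of them without overlap, yet 0 reached an unadjusted p under 0.05. The share without overlap was 62.5%, against 46.3% of all 67 genes and 19.2% of all rows, and 85.1% of the 67 were lower, so the direction was that of the whole family. The 3 measured X-linked genes, Rps4x, Rpl39 and Rpl36a, differed by -0.275, -0.066 and -0.048.

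Several members have a paralog, a related gene that in some cases, but not in all, can take their place in the ribosome. Of the 9 measured symbols fixed as paralogs, 5 were higher and 4 lower, with a median of 0.0089 against -0.17 for the 6 measured partner genes. These sets are not pairs, since Rpl10 and Rps27, the partners of Rpl10l and of Rps27l and Rps27rt, had no row. Nor are they matched in level, with 4 of the 9 paralogs and 0 of the 6 partners below the negative control median. Rpl22l1, which its partner Rpl22 represses in mice, lay at 9.87 and 9.72 in TCQA and at 10.07 and 9.36 in water, a change of 0.076 (SE 0.27), against -0.27 for Rpl22. Rpl7l1 lay at 9.95 and 10.01 in TCQA and at 9.84 and 9.68 in water, a change of 0.22 (SE 0.19) without overlap, against -0.28 for Rpl7. Rps27l, which p53 induces in human cells, lay at 7.79 and 8.06 in TCQA and at 8.39 and 8.05 in water, a change of -0.30 (SE 0.22) with overlap. Rpl36al differed by 0.0089 (SE 0.24) and Rpl36a by -0.048 (SE 0.20). The difference between a paralog and its partner was not tested.

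Paralogs known for other tissues had low signal here. Rpl3l, of heart and skeletal muscle, lay at 3.87 and 4.18 in TCQA and at 4.32 and 3.89 in water. Rpl10l and Rpl39l, of testis, lay between 5.23 and 5.79 and between 3.57 and 3.86 over the 4 arrays, and Rps4l between 5.36 and 5.90. These 4 and Rps23rg1 were the genes with a mean below the negative control median, so their changes are uncertain in size. Rps23rg1 (transcript cluster TC0800000012.mm.2 on chromosome 8) lay at 4.99 and 4.67 in TCQA and at 5.20 and 6.09 in water, a change of -0.82 (SE 0.32, unadjusted p = 0.0420, adjusted p = 0.673 by limma). Without water 2 the change of Rps23rg1 was -0.37, without TCQA 2 it was -0.66, and in both cases the unadjusted p exceeded 0.05, while without water 1 it was -1.26. Rps27rt, a retrogene copy of Rps27, lay at 9.42 and 9.31 in TCQA and at 9.68 and 9.51 in water, a change of -0.23 (SE 0.19). RefSeq names 321 ribosomal protein pseudogene symbols, and probes may pick up near-identical copies, so a value may be shared among copies.

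The lists of translation machinery around the ribosome did not share a direction. Of 25 listed genes with TOP mRNAs outside the rule 22 were measured, with 8 higher, 14 lower and a median of -0.094. Both TCQA arrays lay below both water arrays in 10 of them (45.5%), a share near the 46.3% of the 67 genes, against 19.2% of all rows. Both lay above in 5 (22.7%), against 19.9% of all rows. At an unadjusted p under 0.05, 1 gene was called higher and 0 lower, against 3.48% and 3.89% of all rows. That gene was Vim, the intermediate filament vimentin, at 8.15 and 8.37 in TCQA and at 7.76 and 7.07 in water, and without water 2 its change of 0.85 (SE 0.27) was 0.50 and not called. Pabpc1, the poly(A)-binding protein, was higher by 0.66 (SE 0.31), with TCQA 1 at 15.76 and the other arrays between 14.59 and 14.90, and without TCQA 1 its change was 0.23. Cox4i1, of the respiratory chain, and Eif3l, of the initiation complex eIF3, were lower without overlap, at -0.42 (SE 0.19) and -0.43 (SE 0.20). Fau, which encodes a ubiquitin-like fusion of a small subunit protein, lay at 11.91 and 11.76 in TCQA and at 11.78 and 11.82 in water.

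Initiation factors were higher for 16 and lower for 14 of 30 measured genes (median 0.015), with 1 called higher and 0 lower, which did not exceed the background of 3.48% higher. The called gene, Eif2s3x, the X-linked gamma subunit of eIF2, lay at 13.74 and 13.83 in TCQA and at 13.11 and 13.33 in water, a change of 0.56 (SE 0.19, unadjusted p = 0.0253). Eif1b (0.41) and Eif2b1 (0.40) were higher without overlap. Elongation and termination factors were higher for 12 of 18 (median 0.053), with 1 called, Gtpbp1, a GTPase of ribosome quality control, at 0.68 (SE 0.22). Abce1, which splits ribosomes after termination, and Hbs1l, which rescues stalled ones, were higher without overlap at 0.34 (SE 0.18) and 0.26 (SE 0.18), and Eef1d, an exchange factor of elongation, was lower at -0.28 (SE 0.19). Leaving out single arrays took away the call of Eif2s3x in 3 of 4 cases and that of Gtpbp1 in 2 of 4.

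Assembly factors had more higher than lower members. Of 59 measured ribosome biogenesis genes 39 were higher in TCQA, with a median of 0.12, 4 called higher and 1 lower. The share lower was 33.9%, against 49.5% of all rows and 41.4% of rows in the upper 50 percent of signal, while 3.48% of all rows were called higher and 3.89% lower. Groups did not overlap for 23 of the 59 in the higher direction (39.0%) and for 10 in the lower one (16.9%). All rows had 19.9% and 19.2%, and rows in the upper 50 percent of signal had 26.6% and 15.7%. Lsg1, a GTPase that releases a late export adaptor from the large subunit, lay at 11.47 and 11.71 in TCQA and at 11.04 and 10.90 in water, a change of 0.62 (SE 0.20). Gtpbp4, a nucleolar GTPase, was higher by 0.56 (SE 0.21), Dkc1, the pseudouridine synthase dyskerin, by 0.65 (SE 0.24) and Grwd1 by 0.59 (SE 0.20), but Grwd1 lay under the median of the negative controls on all 4 arrays and Dkc1 on 3 of 4. Mybbp1a, a nucleolar protein, was called lower at -0.47 (SE 0.18), and this gene was named after its value was seen. RNA polymerase I and III genes were higher for 20 of 33 (median 0.060), with 1 called, the transcription terminator Ttf1, at 0.55 (SE 0.19), while Polr1d (-0.43), Polr1a (-0.42) and Brf1 (0.38) were not called. In the polymerase list 13 of 33 genes (39.4%) were higher without overlap and 5 (15.2%) lower. Both list medians lay below 0.22, the median SE of a single gene's change, which does not measure the error of a list median. The calls of Lsg1, Gtpbp4, Dkc1, Grwd1 and Ttf1 were each lost with at least 1 array left out, and without TCQA 1 the change of Dkc1 was 0.37.

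The mTORC1 pathway that governs TOP mRNAs was higher for 29 and lower for 12 of 41 measured genes, with a median of 0.15 and 1 called. The share lower was 29.3%, against 49.5% of all rows and 40.4% of the rows above the negative control 95th percentile, where 21 of the 41 lay. The single call did not exceed the background of 3.48% called higher. Groups did not overlap for 18 of the 41 in the higher direction (43.9%) and for 4 in the lower one (9.76%). All rows had 19.9% and 19.2%, and the rows above the negative control 95th percentile had 29.9% and 16.7%. This difference in shares was not tested. Deptor, an inhibitor inside the mTOR complexes, lay at 8.78 and 9.35 in TCQA and at 7.90 and 8.32 in water, a change of 0.955 (SE 0.27, unadjusted p = 0.0107, adjusted p = 0.664 by limma). Rptor, the scaffold of mTORC1, Castor2, an arginine sensor relative, and Sesn2, a leucine sensor, differed by 0.42 (SE 0.23), 0.38 (SE 0.18) and 0.45 (SE 0.21), and Sesn2 lay below the negative control median on all 4 arrays. Among 14 measured genes of the ribosomal stress route to p53, 3 were called higher and 2 lower, against 3.48% and 3.89% of all rows, and 6 of the 14 had a mean below the negative control median. Mdm2, which Rpl5 and Rpl11 bind, lay at 12.25 and 12.43 in TCQA and at 11.70 and 11.62 in water, a change of 0.68 (SE 0.19). Cdkn1a, the p53 target that stops the cell cycle, was higher by 1.44 (SE 0.37) and Bbc3, a proapoptotic target, by 0.59 (SE 0.19), with Bbc3 below the negative control median. Zmat3 (-0.68, SE 0.25) and Mybbp1a were lower. Without TCQA 2 the change of Cdkn1a was 0.89, and Deptor and Mdm2 stood at 0.67 and 0.59 and were not called. Deptor also lost its call without water 1, at 0.75. Zmat3 kept its call only without TCQA 2 (-0.97) and lost it in the other 3 cases, where its change was -0.39 (TCQA 1 left out), -0.78 (water 1) and -0.57 (water 2), and Bbc3 lost its call without TCQA 1 and without water 2.

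Mitochondrial ribosomal protein genes, measured on the same arrays, had a median of 0.053 over 76 genes, with 30 lower and 46 higher. In 8 of them (10.5%) both TCQA arrays lay below both water arrays, and in 20 (26.3%) above, against 46.3% and 7.46% of the cytosolic ones. All tested rows had 19.2% and 19.9%. Rows in the upper 50 percent of signal had 15.7% and 26.6% with a median of 0.052, so the mitochondrial genes lay near such rows. The difference between the families was not tested, since genes of a family are not replicates.

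Several lists of region and cell type markers shared parts of the array pattern of the ribosomal protein genes. Striatal spiny neuron markers (14 measured) had medians, relative to their own 4-array means, of -0.026 in TCQA 1 and -0.61 in TCQA 2, against 0.93 in water 1 and -0.23 in water 2. Choroid plexus and ependyma markers (13 measured, 13 lower in TCQA) had medians of -0.36 and -0.55 in TCQA 1 and 2, against 1.03 and 0.15 in water 1 and 2. Of these 13, 10 were called lower at an unadjusted p under 0.05 by limma, against 3.89% of all rows. Myelinating oligodendrocyte markers (14 measured, 12 lower) had 0.46 in water 1 and between -0.18 and -0.10 on the other arrays. By these medians water 1 was highest and TCQA 2 lowest for the ribosomal protein genes and for these 3 lists. For myelin TCQA 2 stood only slightly apart, at -0.18 against -0.11 in TCQA 1 and -0.10 in water 2. In the striatal list TCQA 1 lay above water 2, unlike in the small subunit. Microglia markers also had water 1 highest (0.11) and TCQA 2 lowest (-0.18).

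The mean level of the lists ranged between 10.94 and 11.51 in TCQA and between 11.30 and 12.38 in water for striatum, between 6.50 and 6.98 in TCQA and between 7.78 and 8.47 in water for choroid plexus, and between 11.22 and 11.23 in TCQA and between 11.26 and 11.81 in water for myelin. Excitatory neuron markers (14 measured, 11 higher in TCQA) ran the other way, at 0.25 and 0.075 in TCQA 1 and 2 against -0.44 and 0.14 in water 1 and 2. Water 1 stood apart as their lowest array, while water 2 lay above TCQA 2. Of these 14, 2 were called higher and 0 lower at an unadjusted p under 0.05 by limma, against 3.48% and 3.89% of all rows. Olfactory bulb markers stood at 0.56 in TCQA 2 and between -0.30 and -0.14 elsewhere. Markers below the negative control median numbered 7 of 13 for choroid plexus, 6 of 14 for olfactory bulb and 1 of 14 each for striatum, myelin and excitatory neurons. Microglia markers were lower for 12 of 14 (median -0.10), and astrocyte markers had a median of -0.033. Thalamic markers had a median of -0.093, with 3 of 15 called lower at an unadjusted p under 0.05 by limma, against 3.89% of all rows. The 4 measured blood genes, 3 of them below the negative control median, had a median of 0.13. The part of tissue composition in the ribosomal protein values was not tested, and fewer cells of a type cannot be told apart from less RNA per cell in such samples.

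**Figure D4:**
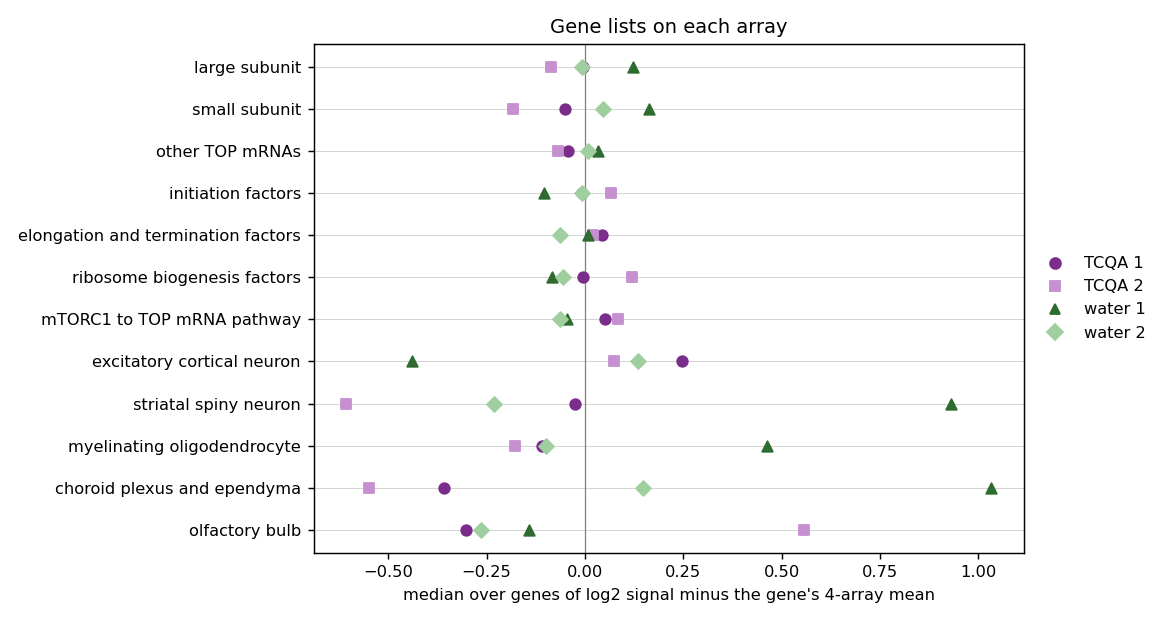
Median over genes of log2 signal minus the gene's 4-array mean (horizontal axis) for each gene list (vertical axis), with 1 symbol per array. Water 1 is the highest array for the large (0.12) and small (0.16) subunit, striatal (0.93), myelin (0.46) and choroid plexus (1.03) lists, and TCQA 2 is the highest for the olfactory bulb list (0.56).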

How the data were processed

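For each transcript cluster the authors deposited a log2 signal. According to their design text, 100 ng of RNA was used and the signals came from RMA with signal space transformation (Transcriptome Analysis Console 4.0.2). RMA and limma also stand in the submitters' processing notes. RMA equalises array distributions, so a common shift of all genes is removed. No source used here gives a build for the array's probes. Symbols came from the platform annotation, which names 19572 of 28846 rows (several symbols for 0, none for 9274), and all matched RefSeq gene identifiers on GRCm38.p6.

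Groups came from the sample titles. limma 3.58.1 in R 4.3.3 compared TCQA with water over all named rows (lmFit, eBayes, 2-sided, Benjamini-Hochberg), and 0.22 was the median SE. The genes, lists and rules for naming genes were chosen with earlier results of these data known. Named genes were the 5 highest and 5 lowest changes per subunit, genes with an unadjusted p under 0.05, the stalk, 5S, paralog and X-linked groups, Rps6, Rpsa and Rps19, and rows of highest and lowest signal. Fau was named as the measured 1 of 3 other components. In each pathway list the 4 genes with the smallest p were named, and further members are given to describe their groups. Alternatives covered the prior, weights, normalisation, centring, a filter on dim rows, duplicate symbols, the members counted, a replicate block, ordinary t statistics and each array left out. On 10 simulated data sets of 19572 rows with 200 changed for this comparison, a log2 change of 0.5 had an unadjusted p under 0.05 in 44.3% of cases and one of 1.5 in 98.7%. Figures used matplotlib 3.10.9 in Python 3.11.15.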

Additional observations from a re-analysis of the deposited data

How the results depend on the processing

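The median changes of both subunits stayed below 0 in every setting tried, but not every setting could move them. The variance prior, intensity trend, array weights, replicate block, ordinary t statistics and averaging of rows leave the medians at -0.10 and -0.22 by design. They are therefore no check on the medians. With each array left out in turn the medians ranged from -0.20 to -0.057 for the large subunit and from -0.28 to -0.15 for the small one. The lone array of a group was then assumed to vary like the other group. Quantile normalisation gave -0.16 and -0.29. The counts of genes with an unadjusted p under 0.05 were unstable: 1 higher and 3 lower (Rpl29, Rps14, Rps23rg1) with an intensity trend, 3 lower with ordinary t statistics (Rpl41, Rps25, Rpl32l), 0 lower with the prior over all rows, with quantile normalisation, in the upper 50 percent of signal, without genes below the negative control median and, chosen after seeing the data, without paralogs and copies, and 0 to 2 lower with an array left out. After adjustment 0 of the 67 passed in every setting. Same-numbered deviations correlated with r = -0.0032 over all named rows. With 2 arrays a group this cannot show whether the numbers pair the arrays, and the titles give only replicate numbers. Among the 67 genes array 1 exceeded array 2 in 51 in TCQA and in 48 in water. With the replicate block 0 genes were higher and 1 lower at an unadjusted p under 0.05. Quantile normalisation turned Rpl3l to 0.0011, Rps18 to -0.010, Rpl10l to 0.013, Rpl36al to -0.035 and Fau to -0.033, and median centring turned Rpl36al to -0.0089. With an array left out, changes ranged across 0 for Rpl37a (-0.73 to 0.051), Rpl3l (-0.30 to 0.14), Rps20 (-0.39 to 0.13), Rps6 (-0.22 to 0.035), Rps10 (-0.17 to 0.065), Rps4l (-0.16 to 0.38), Rpl11 (-0.086 to 0.034), Rpl10l (-0.35 to 0.22), Rpl22l1 (-0.28 to 0.43), Rpl36al (-0.26 to 0.27), Rpl39 (-0.21 to 0.083), Rpl36a (-0.20 to 0.11), Rps19 (-0.42 to 0.16) and Fau (-0.044 to 0.11). A simulated log2 change of 0.5 was called in 44.3% of cases, and no smaller change was simulated. The simulated noise was independent between genes, without shifts that genes on an array share. The simulation therefore does not show why few of the 67 genes were called.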

Other observations

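The rows that the naming rule left out give a view of neighbours of the ribosomal proteins. The 1 pseudogene row, Rpl31-ps12, lay at 14.50 and 14.25 in TCQA and at 14.68 and 14.68 in water, a change of -0.31 (SE 0.20), beside -0.36 for Rpl31. Rps19bp1, a nucleolar protein that binds Rps19, lay at 8.53 and 8.46 in TCQA and at 8.204 and 8.211 in water, a change of 0.29 (SE 0.18) without overlap. Among the kinases named after Rps6, the measured S6 kinase Rps6kb2 differed by -0.088 (SE 0.20) and the ERK-activated Rps6ka3 by 0.085 (SE 0.21). Rps6ka5, a nuclear kinase of histones and CREB, differed by 0.17 (SE 0.20). Rps6kc1, Rps6ka6 and Rps6kl1 differed by -0.16 (SE 0.21), -0.068 (SE 0.29) and 0.30 (SE 0.23), and the groups overlapped for all 6 kinases.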
